A study of Drosophila melanogaster with 27 samples.

Results

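The comparison set head RNA of flies labelled Tim-Dcr against head RNA of wild-type Drosophila melanogaster at matched times of day. It rests on 5 of the 27 arrays of the series, chosen by their titles: the unfractionated head extract (INPUT) of Tim-Dcr at ZT3 and at ZT15, 1 array each, and wild-type INPUT at the same times, with 1 array at ZT3 and 2 at ZT15. ZT (Zeitgeber time) counts hours after lights on. All groups were heads of adult flies reared in a daily cycle with 12 h of light, with RNA extracted in TRIzol and hybridised to Affymetrix Drosophila arrays. The labels give no strain, sex, age or number of heads, and they do not say what the name Tim-Dcr stands for, so no transgene, driver or allele is assumed here. Wild-type replicates are biological according to the design text, and Tim-Dcr had no replicate at either time. The other 8 wild-type INPUT arrays (ZT7, ZT11, ZT19 and ZT23, 2 each) entered the estimate of the spread, the wild-type ranges and a description of how genes co-varied, but not the matched difference.

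Whole-head RNA is a mixture. Photoreceptors, neurons, glia and the fat body of the head each bring their own transcripts, whereas seminal proteins of the male accessory gland, the chromatin and tail proteins of developing sperm, and the digestive proteases of the midgut are made in the thorax and abdomen. Lists of genes known for each of these sources can therefore be read beside a genotype difference in head RNA. In bulk RNA, fewer cells of a type and less RNA per cell cannot be told apart.

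The wild-type arrays resembled each other closely and the Tim-Dcr arrays stood apart. Over all probe sets, wild-type INPUT arrays correlated with each other at 0.985 to 0.996. The Tim-Dcr array of ZT3 correlated with them at 0.916 to 0.955 and that of ZT15 at 0.828 to 0.886. Array medians of the log2 values lay at 6.11 to 6.19 in wild type, 5.93 in Tim-Dcr at ZT3 and 5.66 in Tim-Dcr at ZT15. Differences below are Tim-Dcr minus wild type of the same time, on the log2 scale as deposited, from a limma fit to all 13 INPUT arrays, with the standard error (SE) of that fit, n = 2 Tim-Dcr and 11 wild-type arrays, and Benjamini-Hochberg adjusted p over 16209 probe sets. A gene was called when its adjusted p was under 0.05 and its difference had 1 sign at ZT3 and at ZT15. Because each Tim-Dcr time had 1 array, these p-values assume that Tim-Dcr samples vary as wild-type samples do.

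Most genes passed the test in one direction or the other. By this rule 3951 of 11439 genes were higher in Tim-Dcr (34.5%) and 2356 were lower (20.6%). Both Tim-Dcr arrays lay above all 11 wild-type arrays in 37.7% of genes and below all of them in 22.2%. Past 2-fold the balance turned, with 683 genes higher (5.97%) and 1789 lower (15.6%). The extremes were all on the lower side: 240 genes were lower by over 16-fold, while 21 were higher by over 4-fold. The median probe set lay 0.23 higher in Tim-Dcr as deposited, 0.59 higher once arrays were centred on their medians, and 0.50 lower (-0.50) after each array was scaled to the median of 68 photoreceptor, neuronal and glial genes. The share of calls that were higher moved with it, from 66.5% of the called probe sets as deposited to 82.9% on centred arrays and 4.23% relative to the head genes. In genes, 60% were higher and 16.4% lower on centred arrays, and 2.12% higher and 45.1% lower relative to the head genes. Directions below are on the deposited scale unless another is named, and small rises depend on that choice.

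Transcripts of the male accessory gland were high in the wild-type head samples and much lower in Tim-Dcr. SP encodes sex peptide, the seminal protein that changes a mated female's behaviour. It measured 11.92 in wild type at ZT3 and 11.68 and 11.53 at ZT15, against 6.64 and 4.15 in Tim-Dcr at ZT3 and ZT15. Both Tim-Dcr values lay below the whole wild-type range of 11.48 to 12.12, a placing shared by 22.2% of all genes. The difference was -6.52 (SE 0.38, a 91.8-fold difference, limma adjusted p = 1.44e-05). Acp98AB, an accessory gland peptide, measured 13.11, 13.33 and 13.02 in wild type and 9.26 and 4.26 in Tim-Dcr (difference -6.75, SE 0.82, adjusted p = 0.000145 by limma). Dup99B, a ductus ejaculatorius peptide related to SP, differed by -6.54 (SE 0.63), and EbpII, an ejaculatory bulb protein, by -6.53 (SE 0.84). Mst57Da (-5.67), Mst57Dc (-5.65), the ejaculatory bulb protein Ebp (-5.59) and Acp53Ea (-5.35) followed.

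Across the accessory gland list, 30 of 39 tested genes were lower (76.9%, beside 20.6% of all genes) and 0 higher (beside 34.5%). The median difference was -2.29 beside 0.22 over all genes. The mean of the list lay between 8.16 and 8.87 in the 11 wild-type arrays, at 5.94 in Tim-Dcr at ZT3 and at 5.07 at ZT15. In wild type 3 members had a median log2 value under 5 over the 11 arrays, whereas 18 measured under 5 in Tim-Dcr at ZT3 and 29 at ZT15. Seminal transcripts were measured at lower levels in both Tim-Dcr samples, with no overlap between the genotypes in the list mean. Both Tim-Dcr arrays lay below all wild-type arrays for 33 of the 39 genes, beside 22.2% of all genes.

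Testis transcripts showed the same direction and the widest gap between the Tim-Dcr times. Mst84Db encodes a cysteine-rich protein of the sperm tail. It measured 12.91 in wild type at ZT3 and 12.82 and 12.43 at ZT15, against 9.88 in Tim-Dcr at ZT3 and 4.44 at ZT15 (difference -5.98, SE 0.84, 63.1-fold, limma adjusted p = 0.000341). The Tim-Dcr array of ZT3 thus stood between wild type and the ZT15 array. Its relatives Mst84Dc (-5.58), Mst84Da (-5.30) and Mst87F (-5.26) were lower to a like extent, as were the sperm leucyl aminopeptidases S-Lap8 (-5.50) and S-Lap7 (-5.47) and Dpy-30L2 (-5.32). Such families hold near-identical members, and their probe sets may share signal.

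Of 50 tested testis genes 45 were lower (90%, beside 20.6% of all genes) and 0 higher (beside 34.5%), with a median difference of -3.15. The list mean was 8.29 to 9.15 in wild type, 6.72 in Tim-Dcr at ZT3 and 4.66 at ZT15. The 5 members that did not pass the test included 2 genes that act in spermatocytes, twe, a Cdc25 phosphatase of male meiosis (-0.19, adjusted p = 0.257 by limma), and comr, a regulator of the testis transcription programme (-0.17, adjusted p = 0.272). ProtA, a protamine-like protein of sperm chromatin (-5.19), and betaTub85D, the testis beta tubulin (-5.01), stood among the lower ones. twe, comr, ProtA and betaTub85D were chosen after their values were seen, and a split by stage of sperm development was not tested.

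Digestive enzymes of the midgut were the third body source. alphaTry, a trypsin, measured 12.01, 12.13 and 11.84 in wild type against 7.51 and 4.73 in Tim-Dcr (difference -6.07, SE 0.48, 67.4-fold, limma adjusted p = 3.62e-05). Again neither Tim-Dcr array reached the wild-type range. The serine proteases Jon65Aiv (-5.57), betaTry (-5.30), yip7 (-5.08), Jon65Aiii (-4.67), Jon99Ci (-3.29) and lambdaTry (-3.21) and the maltase Mal-A1 (-3.13) were lower as well. In all, 33 of 51 midgut genes were lower (64.7%, beside 20.6% of all genes) and 2 higher (3.92%, beside 34.5%), with a median of -1.31. The 2 higher genes, Try29F (0.81) and Peritrophin-A (0.77), had wild-type values of 4.72 to 6.42, and neither was called relative to the head genes. Without the Tim-Dcr array of ZT15, 16 midgut genes were called lower. The list mean nevertheless stood at 5.13 and 5.05 in the Tim-Dcr arrays, below the wild-type range of 6.53 to 7.27.

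**Figure D1:**
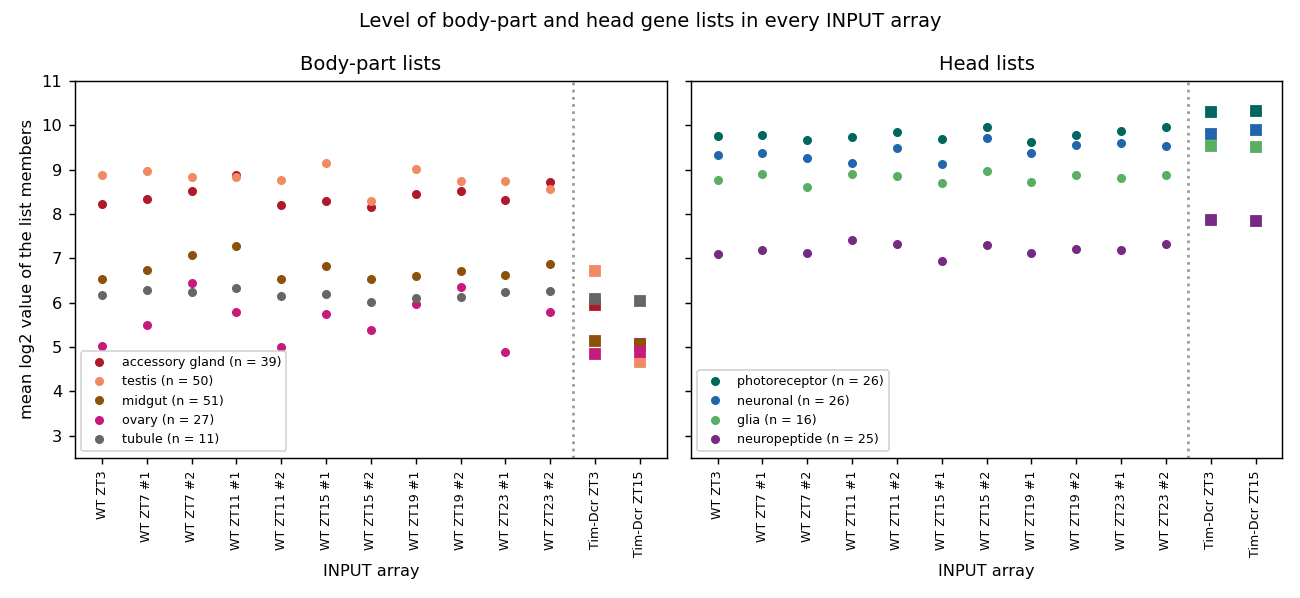
Mean log2 value of each body-part list (left) and head list (right) in each of the 13 INPUT arrays, circles for wild type and squares for Tim-Dcr. Testis, accessory gland and midgut means drop in both Tim-Dcr arrays, the testis mean to 6.72 at ZT3 and 4.66 at ZT15, whereas the head lists stand above every wild-type array.

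The ovary list had few calls in either direction, and the Malpighian tubule list had shares of calls near those of all genes. Among 27 ovary genes 3 were lower (11.1%, beside 20.6% of all genes) and 2 higher (7.41%, beside 34.5%), with a median of -0.01. The ovary list mean was 4.83 and 4.88 in Tim-Dcr, just below the wide wild-type range of 4.89 to 6.44. The lowest was exu (11.30, 11.68 and 10.66 in wild type, 8.56 and 4.58 in Tim-Dcr), which acts in oocyte RNA localisation and is also used in spermatogenesis. The eggshell gene Cp15 was lower by -2.29, but wild-type arrays themselves spread from 6.12 to 9.78. fs(1)N, needed for the eggshell, was lower too (-1.23), and Fcp3C, a follicle cell gene (0.99), and grk, the oocyte's EGF receptor ligand (0.70), were higher as deposited. Of 11 tubule genes 2 were lower (18.2%), the zinc transporter ZnT35C (-2.59) and salt (-1.75). As deposited 4 were higher (36.4%), led by the leucokinin receptor Lkr (1.13), but 0 were higher relative to the head median. Over all 5 body-part lists together, 113 of 178 genes were lower (63.5%, beside 20.6% of all genes) and 8 higher (4.49%, beside 34.5%). Of the 11261 genes in no body-part list 2243 were lower (19.9%). The lists hold 178 of 11439 genes, so leaving them out could not move that share far. Absence from these lists does not place a gene in the head.

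The genes that fell furthest outside these lists were mostly also high in wild type. BG642312 measured 11.43, 11.43 and 10.88 in wild type and 4.56 and 3.59 in Tim-Dcr (difference -7.27, SE 0.25, 154-fold, limma adjusted p = 4.22e-07). Cyp4g1, the oenocyte P450 that makes cuticular hydrocarbons, measured 13.59, 13.75 and 12.92 against 8.47 and 5.22 (difference -6.83, SE 0.55, 114-fold, adjusted p = 3.89e-05 by limma). In both genes every wild-type array was far above both Tim-Dcr arrays. Anp, an antibacterial peptide of the male ejaculatory duct, differed by -5.61 and the odorant-binding protein gene Obp51a by -5.60. Their Tim-Dcr values were 8.05 and 5.41 for Anp and 4.86 and 3.80 for Obp51a.

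The other 11 of the 15 lowest genes had a common profile. They were CG4836 (-6.19), CG17377 (-6.16), CG17376 (-5.95), CG31226 (-5.94), CG31988 (-5.89), lncRNA:CR9284 (-5.88), CG31820 (-5.82), salto (-5.79), CG9920 (-5.77), CG15219 (-5.69) and CG31468 (-5.62). In wild type all 11 measured between 11.65 and 13.20. In Tim-Dcr they measured 9.21 to 10.26 at ZT3 and 3.79 to 4.45 at ZT15, the step also seen in Mst84Db.

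The wild-type arrays that the contrast did not use allow a further description. Over the 8 arrays of ZT7, ZT11, ZT19 and ZT23, the testis list mean varied from 8.57 to 9.02. Among genes in no body-part list, 59.7% of the 2243 lower genes followed that mean with a correlation above 0.5, as did 8.47% of the 5075 genes not called and 2.74% of the 3943 higher genes. The share was 69.1% for the 1685 genes lower by over 2-fold. For the accessory gland mean the shares were 8.92% of lower, 10.8% of uncalled and 11.3% of higher genes, and for the midgut mean 16.7%, 18.9% and 15.8%. The neuronal mean gave the opposite order, with 1.69% of lower, 14.4% of uncalled and 18% of higher genes. These correlations are across 8 arrays that share collection times, replicates and one normalization, and they are given as a description of how the genes co-varied.

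The depth of the drop differed between the Tim-Dcr samples for a limited set of genes. In a fit with a separate mean for each genotype and time, the difference between genotypes changed from ZT3 to ZT15 for 244 probe sets (limma, adjusted p under 0.05), of which 243 were lower at ZT15 (1.5%) and 1 higher (0.00617%). Of 11439 genes 217 were lower at ZT15 (1.9%) and 1 higher (0.00874%). Within these, 215 were also called lower over both times, 28 belonged to a body-part list and 20 to the testis list. ocn, a testis gene, measured 12.18 in wild type at ZT3 and 9.94 in Tim-Dcr, then 12.51 and 11.87 in wild type at ZT15 and 4.32 in Tim-Dcr. Its genotype difference changed by -5.63 log2 units from ZT3 to ZT15 (limma adjusted p = 1e-04). The count depends on the wild-type pair at ZT15, since 388 probe sets differed without its replicate 1 and 878 without its replicate 2. With 1 Tim-Dcr array per time, the time and the sample cannot be told apart.

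Of the 2356 lower genes, 715 were lower by a further 2-fold at ZT15, as were 232 of the 240 genes lower by over 16-fold. Of the unlisted genes among the 715, 81% followed the testis mean in the 8 wild-type arrays, beside 61.2% of the 1017 unlisted genes that were over 2-fold lower without it. Genes already near the low end of the scale in Tim-Dcr at ZT3 had less room for a further step. lambdaTry measured 4.30 there, beside a lower quartile of 4.21 over all probe sets of that array, and 4.33 at ZT15. BG642312 still moved from 4.56 to 3.59. Whether the low end limited such genes was not tested.

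**Figure D2:**
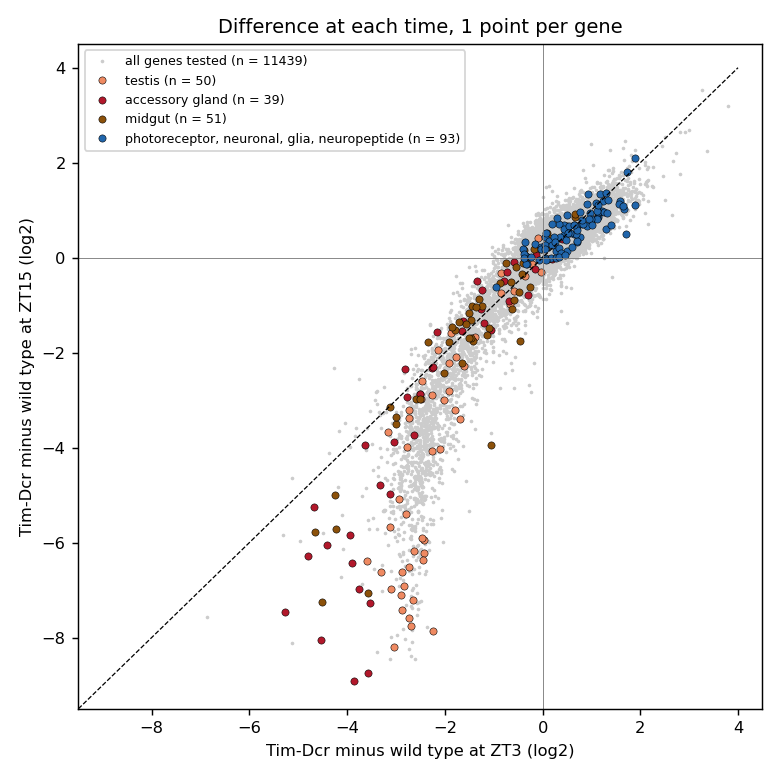
Genotype difference at ZT3 (x axis) against that at ZT15 (y axis), Tim-Dcr minus wild type in log2 units, 1 point per gene, with list members in colour and the dashed line marking equal differences. Testis genes bend below the line, near -2.5 at ZT3 and down to about -8 at ZT15, while genes of the head lists cluster just above 0 on both axes.

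Among the head's own cells, photoreceptor genes were higher as deposited. Calx, the sodium-calcium exchanger that clears calcium after a light response, measured 7.25, 7.19 and 7.43 in wild type and 8.83 and 8.51 in Tim-Dcr (difference 1.36, SE 0.19, 2.57-fold, limma adjusted p = 0.000304). ninaB, the oxygenase that makes retinal for rhodopsin, differed by 1.32, gl, the transcription factor of photoreceptor fate, by 1.31, and stops, needed to end the light response promptly, by 1.22. Both Tim-Dcr values of each gene exceeded the 11 wild-type values, a placing shared by 37.7% of all genes. The 26 photoreceptor genes had a median of 0.57, and 15 were higher (57.7%, beside 34.5% of all genes) and 1 lower. rdgA, a diacylglycerol kinase, was the lower one (-0.77), though 3 of its 4 probe sets had the other sign. The arrestin gene Arr2 (-0.00) and the light-activated channel gene trp (-0.21), chosen after their values were seen, did not pass the test. Without the Tim-Dcr array of ZT15, 9 photoreceptor genes were called higher.

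Neuronal and glial lists also held genes that were higher as deposited. Syn, a synaptic vesicle protein, measured 9.78, 9.94 and 10.68 in wild type and 11.10 and 11.25 in Tim-Dcr (difference 1.10, SE 0.24, limma adjusted p = 0.00434). The transcription factor gene onecut (1.28), the vesicle GTPase gene Rab3 (1.03) and ple, which encodes tyrosine hydroxylase (0.95), were also higher, in a list with 11 of 26 higher (42.3%, beside 34.5% of all genes), 0 lower and a median of 0.53. Gat, the glial GABA transporter, led the glia list (6.07, 6.46 and 7.34 in wild type, 7.97 and 8.01 in Tim-Dcr, difference 1.45), ahead of nkd (1.34) and the blood-brain barrier genes Mdr65 (1.12) and moody (1.03). Of 16 glial genes 10 were higher (62.5%) and 0 lower (median 0.68).

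Neuropeptide genes had the highest list median, 0.77, with 17 of 25 higher (68%, beside 34.5% of all genes) and 0 lower. Ilp5, an insulin-like peptide of the brain's insulin-producing cells, measured 6.32, 6.05 and 6.41 in wild type and 8.23 and 8.34 in Tim-Dcr (difference 2.02, SE 0.22, 4.05-fold, limma adjusted p = 9.14e-05). CCHa2, a nutrient-responsive peptide, differed by 1.77, Nplp3 by 1.33 and Ilp2 by 1.26. Without either Tim-Dcr array, 10 neuropeptide genes and 4 neuronal genes were called higher. The eye pigment list was similar, with 11 of 17 higher (64.7%) and a median of 0.66. It was led by se, an enzyme of the red drosopterin pathway (1.48), and bw, a pigment precursor transporter subunit (1.32).

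Scaling arrays to the pooled median of photoreceptor, neuronal and glial genes removes the common shift of those lists by construction. On that scale 4 photoreceptor genes were called higher and 8 lower, 1 neuronal gene higher and 9 lower, 2 glial genes higher and 2 lower, and 2 neuropeptide genes higher and 3 lower. The neuropeptide median was then 0.04 and the eye pigment median -0.07. Neither list was chosen for the scaling, but the eye pigment gene e is also in the glia list and so entered it. The mean of the 178 body-part genes lay at 7.17 to 7.77 in wild type and at 5.77 and 4.98 in Tim-Dcr. The head median lay at 9.34 to 9.81 and at 10.29 and 10.25. Both measures separated the genotypes fully, in opposite directions. With the body-part mean as a covariate 1 probe set was called higher and 2 lower. Since that mean separated the genotypes fully, the fit can hardly tell covariate and genotype apart, and no conclusion is drawn from these counts.

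**Figure D3:**
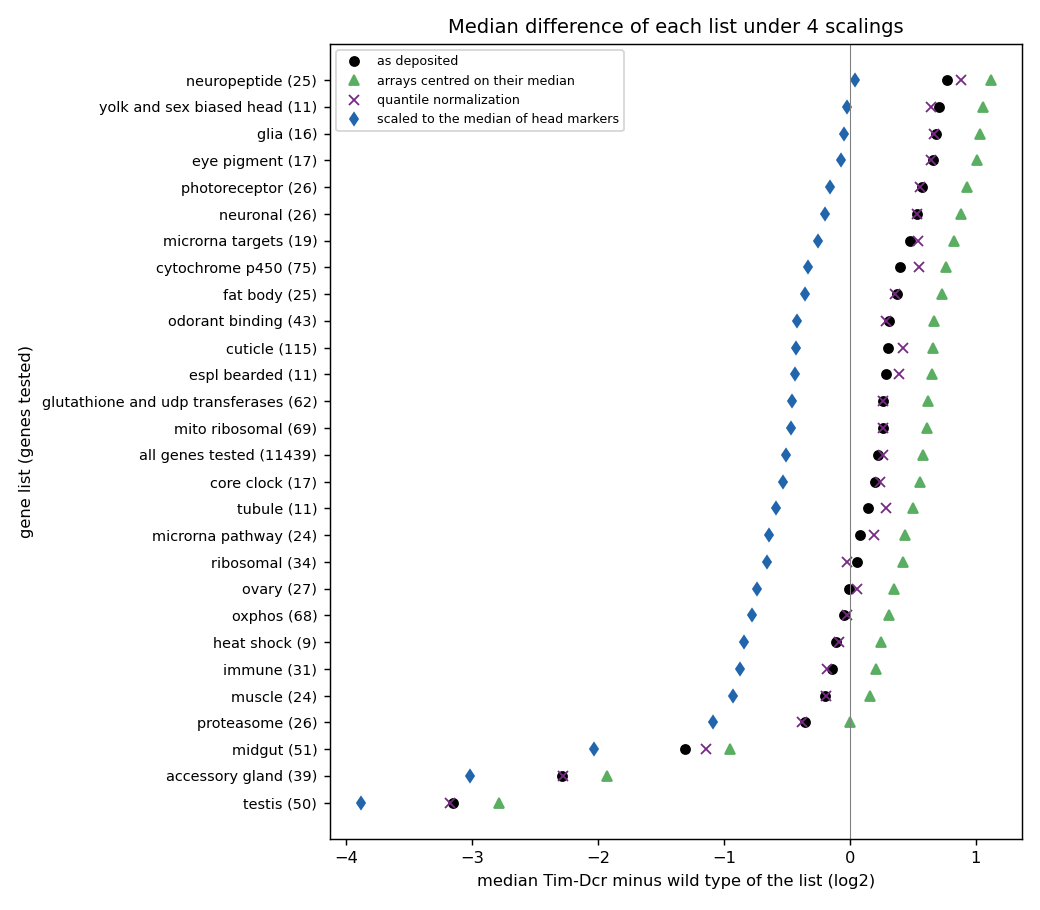
Median Tim-Dcr minus wild-type difference (log2) of each gene list, with the number of genes tested, under 4 scalings. Testis, accessory gland and midgut lie left of 0 under all 4, whereas the head lists lie right of 0 under 3 scalings and near 0 when arrays are scaled to the median of head markers.

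Some genes stood out against the head markers too. Relative to the head median 243 genes (2.12%) remained higher of the 3951 called as deposited, 3708 were not called, and 0 turned lower. Osi6, a member of the Osiris family expressed in cuticle-forming tissue, measured 3.70, 4.39 and 3.57 in wild type and 7.50 and 7.18 in Tim-Dcr. Its difference was 3.45 as deposited (SE 0.24, 11-fold, limma adjusted p = 2.77e-05) and 2.73 relative to the head median. CG12947 measured 4.76, 4.76 and 4.77 in wild type and 8.02 and 8.29 in Tim-Dcr (difference 3.41, SE 0.12, 10.6-fold). In the wild-type arrays both genes were near the low end of the scale.

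Further leading genes were CG8012 (2.82), CG31219 (2.77), Lsp2, a larval serum storage protein (2.72), the chitin-binding protein gene obst-A (2.72), CG11741 (2.53), CG10560 (2.44), CG9150 (2.38) and CG15385 (2.31). Lsp2 was variable in wild type, between 5.84 and 8.57, and both Tim-Dcr values (10.83 and 10.40) were above it. fit, a female-enriched fat body gene of the head that responds to feeding, measured 9.08, 9.42 and 10.85 in wild type and 11.90 at both Tim-Dcr times (2.22, SE 0.46). Cyp12d1-d (2.13), CG32523 (2.10), the planar cell polarity gene Vang (2.06), and CG4325 (2.05) completed the 15 highest. All 15 were higher relative to the head median, by 1.33 to 2.73. Of the 21 genes higher by over 4-fold, 19 had differences at the 2 times within 1 log2 unit of each other, and 0 belonged to a body-part list.

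**Figure D4:**
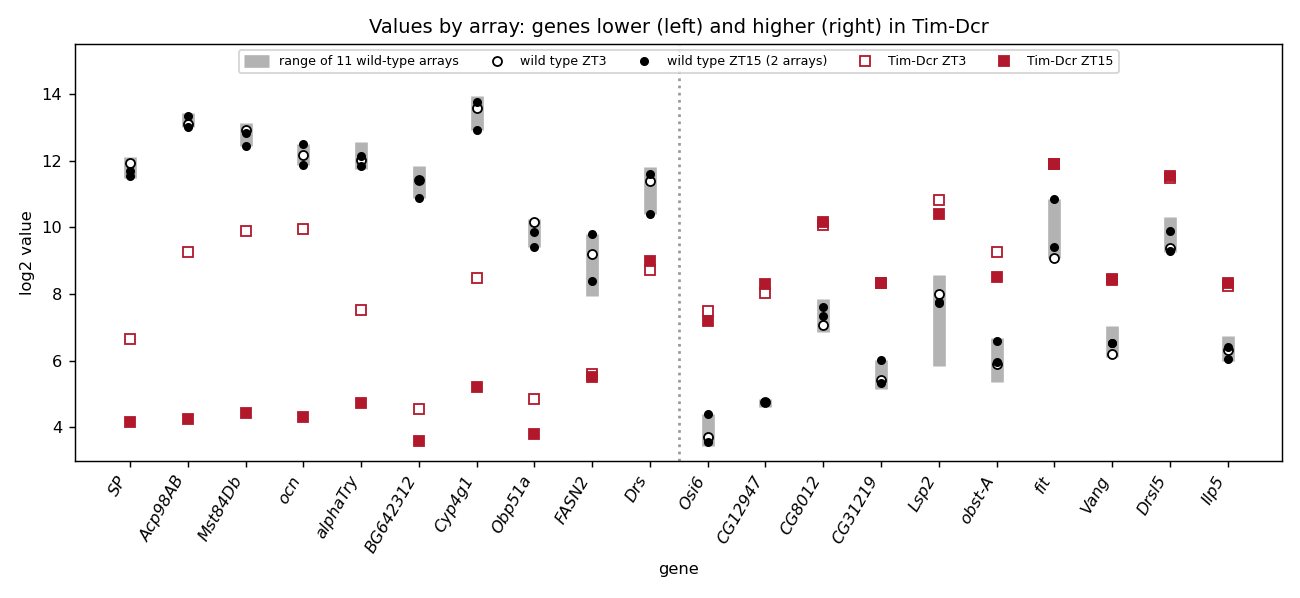
Log2 values of 10 genes lower (left) and 10 genes higher (right) in Tim-Dcr, with grey bars for the range of all 11 wild-type arrays, circles for the matched wild-type arrays and squares for Tim-Dcr. SP, Acp98AB, Mst84Db, ocn and Cyp4g1 step down again from ZT3 (open squares) to ZT15 (filled), whereas FASN2, Drs and the 10 higher genes are near equal at both times.

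Genes of sex-biased expression in the head gave 6 of 11 higher (54.5%, beside 34.5% of all genes) and 0 lower (median 0.71). Besides fit, they included Obp99a (8.43, 9.05 and 8.83 in wild type, 9.46 and 10.90 in Tim-Dcr, difference 1.56) and sxe2, a lipase gene under control of the sex-determination pathway (1.17). dsx, the terminal switch of that pathway, differed by 0.87 (adjusted p = 0.00741 by limma), and by 0.14 relative to the head median. The sex ratio of the collected heads is not given in the labels, and its part in these values was not tested.

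Immune genes moved in both directions. The inducible antimicrobial peptide gene Drs measured 11.40, 10.40 and 11.60 in wild type and 8.71 and 8.98 in Tim-Dcr (difference -2.31, SE 0.36, 4.96-fold, limma adjusted p = 0.000618). Mtk (-1.74), DptB (-1.74) and AttD (-1.60), antimicrobial peptide genes as well, were lower at both times. Unlike the testis genes, all 4 were as low at ZT3 as at ZT15. Relatives of Drs went the other way, Drsl4 by 2.04, Drsl5 by 2.01 and Drsl2 by 0.82, as did the receptor gene Tl by 0.89. Over the list 8 of 31 genes were lower (25.8%, beside 20.6% of all genes) and 6 higher (19.4%, beside 34.5%), and relative to the head median 2 were higher and 21 lower. The list median was -0.14 as deposited and 0.21 on centred arrays.

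Metabolic and cuticle genes were mixed. In the fat body list 12 of 25 genes were higher, led by Lsp2, and 3 lower. The lower ones included the fatty acid synthase genes FASN3 (-3.65) and FASN2 (-3.60), which measured 9.20, 9.81 and 8.40 in wild type and 5.60 and 5.51 in Tim-Dcr for FASN2. Among cytochrome P450 genes 37 of 75 were higher, led by Cyp4d20 (1.5) and Cyp4ac2 (1.31), and 8 were lower, Cyp4g1 and Cyp312a1 (-3.41) most. Glutathione and UDP transferases gave 21 of 62 higher, led by GstE14, which acts in ecdysteroid synthesis (1.99), and GstE2 (1.56), and 5 lower, led by Ugt305A1 (-2.25). Odorant-binding protein genes gave 17 of 43 higher, such as Obp57b (1.57) and Obp19c (1.54), and 6 lower, such as Obp51a and Obp56i (-2.70). Cuticle genes gave 42 of 115 higher, such as Cpr49Ae (1.82), and 5 lower, such as Twdlalpha (-2.17). The shares of higher genes in these lists (33.9% to 49.3%) lay near or above the 34.5% of all genes. Their shares of lower genes (4.35% to 14%) lay below the 20.6% of all genes. Relative to the head median their list medians turned negative, -0.33 to -0.46 beside -0.51 over all genes.

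Of 68 oxidative phosphorylation genes 20 were lower (29.4%, beside 20.6% of all genes) and 0 higher. Among the 18 members whose symbol marks them as a like copy of a subunit (ending in L), 17 were lower, with a median of -3.19, while 3 of the 50 others were lower, with a median of 0.04. This division was drawn after the values were seen. COX7AL measured 9.90, 10.06 and 9.25 in wild type and 6.73 and 3.61 in Tim-Dcr (difference -4.81), whereas its counterpart COX7A differed by 0.26. COX5BL (-4.72) stood against COX5B (0.23), COX4L (-4.54) against COX4 (0.14) and UQCR-11L (-3.97) against UQCR-11 (0.47).

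Among cytoplasmic ribosomal protein genes 5 of 34 were lower (14.7%, beside 20.6% of all genes) and 1 was higher, RpL34a (0.38 as deposited, -0.35 relative to the head median), with a list median of 0.06. The lower ones were the paralogs RpL10Aa (-3.58), RpS19b (-2.85), RpS5b (-2.44), RpS10a (-1.97) and RpS28a (-0.78), and RpL10Ab, the partner of RpL10Aa, differed by 0.03. RpS5b, RpS10a and RpS19b are known for high expression in the germ line. Mitochondrial ribosomal protein genes gave 20 of 69 higher (29%, beside 34.5% of all genes) and 0 lower, led by mRpL33 (0.89), with a median of 0.26 beside 0.22. Relative to the head median 0 of them were higher and 22 lower. Proteasome subunit genes gave 13 of 26 lower (50%, beside 20.6% of all genes), 0 higher and a median of -0.36. Prosbeta3 (-0.98), Rpn6 (-0.96) and Prosbeta7 (-0.88) were the lowest. On centred arrays 3 proteasome genes were lower and 1 higher, so most of these small differences depend on the scale.

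Muscle and heat shock medians (-0.20 and -0.11) changed sign on centred arrays (0.16 and 0.25). In the muscle list 5 of 24 were lower (20.8%, beside 20.6% of all genes). They were led by the flight muscle troponin C gene TpnC4 (-2.31) and the actin gene Act79B (-1.29). Another 4 were higher (16.7%, beside 34.5%), led by Mlc2 (1.11). Of 9 heat shock genes 3 were lower (33.3%), Hsp26 (-1.72), Hsp27 (-1.16) and DnaJ-1 (-0.38), and 1 was higher (11.1%), Hsc70-3 (0.50). Of 7 other serine protease genes 3 were higher as deposited (42.9%, beside 34.5% of all genes), psh (0.65), SPE (0.63) and ea (0.60), which act upstream of Toll. Relative to the head median these 3 stood at -0.08, -0.09 and -0.13, and 0 of the list were called higher and 2 lower.

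Of the core clock's transcriptional loop, tim, per, vri, Clk, Pdp1 and cwo were not called in either direction as deposited. In that loop CLK and CYC activate per and tim, whose proteins then block them, while vri and Pdp1 control Clk. tim measured 8.50 in wild type at ZT3 and 11.50 and 11.24 at ZT15, against 8.23 and 11.77 in Tim-Dcr (difference 0.11, SE 0.21, limma adjusted p = 0.674). per measured 6.19, then 8.48 and 8.66 in wild type, and 6.44 and 8.70 in Tim-Dcr (0.19, adjusted p = 0.277). Both messages were low at ZT3 and high at ZT15 in both genotypes.

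The rise from ZT3 to ZT15 was 2.87 for tim in wild type and 3.54 in Tim-Dcr, and 2.38 and 2.26 for per. For vri it was 2.20 and 3.58, the largest difference of the loop (1.38), with an adjusted p of 0.166 in limma. Clk fell by 1.37 in wild type and by 2.16 in Tim-Dcr (difference -0.79, limma adjusted p = 0.368). The changes in Pdp1 and cwo, a repressor of the loop, also did not differ past the threshold (adjusted p = 0.907 and 0.731). None of these tests passed after adjustment; for vri the unadjusted limma p was 0.00429.

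Of 17 clock genes 7 were higher (41.2%, beside 34.5% of all genes) and 0 lower, and the list median was 0.20 beside 0.22 over all genes. Pdf, the peptide of the clock neurons, measured 7.17, 7.55 and 7.52 in wild type and 8.43 and 8.49 in Tim-Dcr (difference 1.09, SE 0.15, 2.12-fold, limma adjusted p = 0.000259). Its Tim-Dcr values lay above all 11 wild-type values, a placing shared by 37.7% of all genes. The phosphatase subunit gene tws (0.88), jet, which acts in light-driven TIM degradation (0.70), the PDF receptor gene Pdfr (0.49), Pp1-87B (0.48), cyc (0.46) and cry, the blue-light photoreceptor (0.39), were the others. Relative to the head median none of the 17 was called higher, Pdf stood at 0.36 and tws at 0.16, and jet, Pdfr, Pp1-87B, cyc and cry fell below 0 (-0.03, -0.24, -0.25, -0.26 and -0.34). Clk (-0.82), Pdp1 (-0.79) and cwo (-0.74) were called lower on that scale, as were dco and CkIalpha. Without the Tim-Dcr array of ZT3 or of ZT15, 3 and 4 clock genes were called higher as deposited. The kinase genes dco (0.16) and CkIalpha (0.20), slmb (0.35) and wdb (0.20) were not called as deposited.

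**Figure D5:**
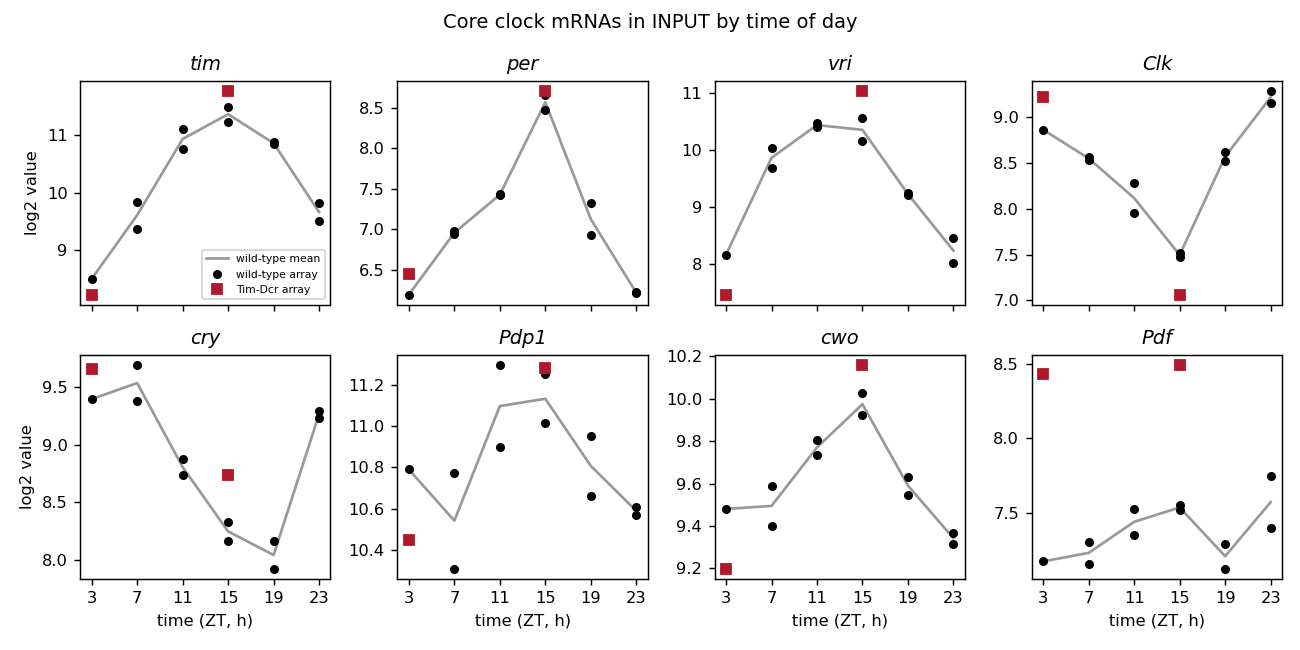
Log2 values of 8 clock mRNAs against time of day (ZT, h), black points for wild-type INPUT arrays, grey lines for their means and red squares for the 2 Tim-Dcr arrays. tim, per and vri are low at ZT3 and high at ZT15 and Clk the reverse in both genotypes. In Tim-Dcr, vri (7.46 and 11.04), tim (8.23 and 11.77) and cwo (9.20 and 10.16) lie below the wild-type range at ZT3 and above it at ZT15. Those ranges are 8.01 to 10.56 for vri, 8.50 to 11.50 for tim and 9.32 to 10.03 for cwo. Pdf lies above all wild-type arrays at both times (8.43 and 8.49).

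Among small RNA pathway genes, Dcr-2 encodes the Dicer that makes small interfering RNAs. It measured 7.82 in wild type at ZT3 and 8.29 and 7.91 at ZT15, against 8.73 and 8.75 in Tim-Dcr (difference 0.76, SE 0.16, 1.69-fold, limma adjusted p = 0.00329). Its Tim-Dcr values lay above the wild-type range of 7.72 to 8.29, a placing shared by 37.7% of all genes. Relative to the head median the difference was 0.03 (adjusted p = 0.917 in limma). Dcr-1 and AGO1 were not analysed here, so these values do not check the label.

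In the microRNA pathway list 8 of 24 genes were higher (33.3%, beside 34.5% of all genes) and 2 lower (8.33%, beside 20.6%), so the higher share was at the background (median 0.08). r2d2, the partner of Dcr-2 (0.87), Fmr1, the fragile X protein gene (0.86, with its second probe set of the other sign), and pasha, the partner of Drosha (0.65), were higher. twin, the deadenylase of the CCR4 complex, was lower (11.05, 11.17 and 10.72 in wild type, 9.47 and 9.14 in Tim-Dcr, difference -1.71, limma adjusted p = 5.12e-05), as was the RNA helicase gene bel (-0.96). Both stayed lower relative to the head median, as did all 2356 genes called lower, since that scale moves every difference down. Of the 8 higher genes none was called higher there, and 11 of the 24 were called lower.

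Published microRNA targets were higher in 9 of 19 cases (47.4%, beside 34.5% of all genes) and lower in 0, with a median of 0.48. skl, a cell death activator, differed by 1.51, sug by 1.02, wun2 by 0.90 and aop by 0.88. The E(spl) and Bearded families, targets of Notch signalling, gave 4 of 11 higher (36.4%, near the 34.5% of all genes) and 0 lower, E(spl)m2-BFM by 1.65, E(spl)m3-HLH by 0.97, E(spl)mbeta-HLH by 0.59 and E(spl)m7-HLH by 0.55. Relative to the head median 1 microRNA target was called higher, skl (0.78), and 5 lower. In the E(spl) and Bearded list 1 was higher there, E(spl)m2-BFM (0.92), and 1 lower. The medians were -0.25 and -0.44 beside -0.51 over all genes.

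The AGO1 immunoprecipitates came from head extracts of the same genotypes and times. Of 188 called genes named by the rule of this comparison, 176 had a difference of the same sign between Tim-Dcr and wild-type IP arrays. Most of these genes were picked for large differences, and the same share over all genes was not computed. Acp98AB differed there by -7.06, SP by -5.93, Osi6 by 3.34 and CG12947 by 3.10. Since each IP was made from such an extract, it repeats the sample and not the comparison.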

How the data were processed

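RNA of head extracts (INPUT) was measured on Affymetrix arrays. The deposited values are log2 expression per probe set, which the submitters' processing notes credit to GCRMA. The GCRMA version, the arrays it was run on together and a genome build were not given in the sources used here. Precision is limited by the number of arrays. Of 18952 probe sets, 183 controls were left out. In the array annotation 13647 of the rest had 1 symbol, 402 several and 4720 none; 13544 matched RefSeq by gene ID. The probe set with the highest INPUT mean stood for each of 11982 genes.

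Probe sets with a log2 value above 4 in at least 2 INPUT arrays were kept (16209). limma 3.58.1 in R 4.3.3 fitted time (6 levels) plus a Tim-Dcr term to 13 INPUT arrays (6 residual degrees of freedom). The difference between times came from 8 group means (5 residual degrees of freedom, from wild-type pairs). p-values were adjusted by Benjamini-Hochberg at 0.05. The code was tested on simulated data. IP arrays were used only for the closing values of the report and 1 alternative. Alternatives covered the arrays fitted, time, filters, scaling, a body-marker covariate and arrays left out. Named genes were the 15 highest and 15 lowest called genes outside body-part lists, up to 8 per direction in each body-part list and 4 in each other list, all clock genes, Dcr-2, and the 6 smallest p of the difference between times. Members and gene lists were chosen with earlier results of these data known. Python 3.11.15 with pandas 2.3.3 made the tables, and matplotlib 3.10.9 the plots.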

Additional observations from a re-analysis of the deposited data

Results flagged for a closer look

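Among the genes with the smallest p, 6 had a genotype difference that differed between ZT3 and ZT15 in the limma fit with separate means (adjusted p = 1e-04 each). The change from ZT3 to ZT15 was -5.63 for ocn and -5.06 for Acp98AB, members of the testis and accessory gland lists. It was -5.41 for CG9920, -5.41 for CG31740, -4.88 for CG31988 and -4.51 for CG32192, which are in no body-part list. CG31740 measured 12.97, 13.04 and 12.56 in wild type against 10.60 and 5.02 in Tim-Dcr, and CG32192 measured 10.50, 10.75 and 10.40 against 7.93 and 3.51. Over the same 2 Tim-Dcr arrays the testis list mean moved from 6.72 to 4.66 and the accessory gland mean from 5.94 to 5.07; their part in these values was not tested.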

How the results depend on the processing

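No paired analysis was possible because the Tim-Dcr samples carry no replicate number, so the compared groups share none. Leaving out 1 array at a time, the count of higher probe sets lay between 2055 (without Tim-Dcr ZT15) and 5265, that of lower probe sets between 2069 and 2787, and that of differences between times between 388 and 878 (wild-type ZT15 arrays only). Wild-type ZT3 had 1 array and could not be left out; where 1 Tim-Dcr array remained, it was assumed to vary like wild type. Higher calls numbered 2977 with the 5 matched arrays alone, where 2 residual degrees of freedom remain, and 10125 on centred arrays. Head-marker scaling, chosen after seeing the data, gave 311 higher, 7048 lower and 109 differences between times. The body-marker covariate, which itself separated the genotypes fully, left 1 higher and 2 lower. Under head-marker scaling these named differences changed sign and were called on at least 1 scale: grk (-0.03), Oatp58Dc (-0.14), Alp4 (-0.41), jet (-0.03), Pdfr (-0.24), pasha (-0.08), E(spl)mbeta-HLH (-0.14), E(spl)m7-HLH (-0.17), Prm (-0.23), Mlp60A (-0.27), Hsc70-3 (-0.23), psh (-0.08), SPE (-0.09), ea (-0.13), RpL34a (-0.35), CkIalpha (-0.53), Pp1-87B (-0.25), cry (-0.34), cyc (-0.26), dco (-0.57). Clock genes called on neither scale that changed sign were per (-0.54), slmb (-0.38), tim (-0.62), vri (-0.64) and wdb (-0.53). Under the body-marker covariate, called differences that changed sign were CG17376 (0.44), CG31226 (0.33), lncRNA:CR9284 (0.18), salto (0.11), CG9920 (0.22), CG15219 (0.04), CG31468 (0.16), S-Lap8 (0.02), ocn (0.83), Cp15 (0.82), fs(1)N (0.53), grk (-0.29), Peritrophin-A (-0.40), salt (0.30), E(spl)mbeta-HLH (-0.12), E(spl)m7-HLH (-0.02), FASN3 (1.35), Hsp26 (0.56), Hsp27 (2.19), Obp22a (0.50), RpS5b (1.11), Prosbeta7 (0.28), Prosalpha6 (0.15), cry (-0.04), CG31740 (0.39). Of these, ocn, S-Lap8, Cp15, fs(1)N, grk, Peritrophin-A and salt are themselves among the markers averaged into the covariate. Because the covariate can hardly be told apart from the genotype, no conclusion is drawn from the reversals under it. The cause of the reversals was not tested. The other alternatives kept all 3 counts within 1.5 times, and no called gene changed sign under them. Uncalled clock genes near 0 (Clk, Pdp1, cwo, tim and vri) changed sign under one or more of centring, separate group means, a fit without time and leaving out an array. On low signals a fold change is limited by the array's own range, so differences that end near log2 4 may understate the change.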
